A study of Homo sapiens with 24 samples.

Results

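The 35 genes described here encode the enzymes and transporters of glycolysis and a set of genes known to respond to low oxygen. They were taken by gene symbol from a table of read counts for 37411 genes, and all 35 were found there. They comprise 4 glucose and monocarboxylate transporters, 17 glycolytic enzymes, 3 regulators of glycolysis, 10 targets of hypoxia-inducible factor (HIF) outside glycolysis, and HIF1A itself. RNA was sequenced from PC9, an established line of human non-small cell lung cancer cells, in 24 libraries from 8 groups of 3 biological replicates. Cells were plated, grown and rinsed, and their medium was replaced with RPMI containing asparagine ("fed") or lacking it ("starved"), with 200 nM ISRIB or with vehicle (0.004% DMSO), for 6 or 24 h before a common harvest. The 8 groups are therefore fed vehicle, fed ISRIB, starved vehicle and starved ISRIB cells at 6 h and at 24 h. ISRIB acts on the translation factor eIF2B and blocks the integrated stress response, the program through which amino acid shortage raises the transcription factor ATF4. Every group had its medium changed at the start of treatment, so that hours of treatment and hours since the medium change were the same. The results concern 1 cell line, and the sources used here do not give the oxygen level or the glucose content of the media.

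Glycolysis turns glucose into pyruvate, and lactate dehydrogenase turns pyruvate into lactate, which leaves the cell through monocarboxylate transporters. Lung cancer cells often run this pathway fast even when oxygen is present. When oxygen falls, prolyl hydroxylases stop marking HIF-1α for destruction, and HIF raises many glycolytic genes together with genes for mitophagy, collagen modification and its own hydroxylases, EGLN1 and EGLN3. HIF-1α is controlled mainly as a protein, so HIF1A RNA is not a measure of HIF activity.

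Libraries held 16737384 to 27495861 counted reads. Normalised read counts are given as CPM, counts scaled to a library of 1000000 reads after TMM scaling, for replicates 1, 2 and 3 in that order. The filter on low counts kept 17409 genes, among them 34 of the 35; a change below means an adjusted p under 0.05 by the quasi-likelihood test of edgeR with Benjamini-Hochberg adjustment over all 17409 genes, and changes are log2 ratios, given ± SE. In bulk RNA, fewer cells expressing a gene and less of its RNA per cell cannot be told apart. ASNS, the asparagine synthetase gene that ATF4 drives, averaged 29.02 CPM in fed vehicle cells at 6 h and 166 CPM in starved vehicle cells, against 26.7 CPM in starved ISRIB cells. Of 9 epithelial and lung cancer markers 6 reached 1 CPM, while the lung lineage genes NKX2-1, NAPSA and SFTPB stayed under 1 CPM in every library. Among markers of other cell types, CDH5 reached 2.45 to 55.4 CPM, and the summed endothelial list fell with time and was lowest in starved ISRIB cells at 24 h (3.96 to 5.08 CPM, against 7.26 to 11.5 CPM in the other 24 h groups). The summed fibroblast list, nearly all COL1A1, was highest in that same group (9.27 to 13.3 CPM), VWF and KDR stayed under 0.4 CPM, and of 6 leukocyte markers only CD14 reached 1 CPM in any library (0.259 to 1.81 CPM). The part of these markers in the results was not tested. In 3 libraries, fed ISRIB at 24 h replicate 3, starved ISRIB at 6 h replicate 3 and fed ISRIB at 6 h replicate 1, counts depended most negatively on the GC content of the gene, and the counts of changed genes that moved without them are given beside the results.

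Levels were compared between genes per kilobase of exon, merged over all annotated transcripts of a gene. The transcripts in use can be shorter, so levels and paralog shares per kb are uncertain between genes. LDHA, for example, averaged 1944 CPM over 6210 bases and LDHB 820.5 CPM over 2983 bases. GAPDH, the glyceraldehyde-3-phosphate dehydrogenase gene, was highest with a mean of 720 CPM per kb over the 24 libraries. LDHA followed at 313, ALDOA at 276, LDHB at 275, ENO1 at 220, TPI1 at 195, PKM at 144 and PGK1 at 78.3 CPM per kb. PFKP stood at 50.8, HK1 at 35.4, GPI at 23.4 and PGAM1 at 20.2 CPM per kb, and the other enzymes were lower. SLC16A1, the lactate transporter MCT1, stood at 38.9 CPM per kb, SLC2A1, the glucose transporter GLUT1, at 38.3, and the second glucose transporter SLC2A3 (GLUT3) at 6.69. The HIF targets outside glycolysis ranged from 14.8 CPM per kb for the mitophagy receptor BNIP3L down to 0.164 for ANKRD37. ANKRD37 lies across UFSP2 on the opposite strand and stayed under 0.7 CPM, so its values say little. CA9, the carbonic anhydrase used in many tumours as a marker of hypoxia, was not tested: it ranged from 0 to 0.503 CPM, and its 1 library with no read allows up to 0.135 CPM, counting error only. The 17 enzymes together took between 0.931% and 1.13% of all reads as group means. At 6 h the mean was 1.11% in fed vehicle, 1.05% in fed ISRIB, 0.995% in starved vehicle and 0.931% in starved ISRIB cells. At 24 h it was 1.13%, 1.1%, 1.01% and 0.967% in that order. Each starved mean lay under each fed mean, although single libraries of fed and starved ISRIB cells overlapped at both times. This difference was not tested.

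Several of these genes have near-identical processed pseudogenes, to which a counting program can assign reads. GAPDH had 47 such copies in the table, and on average 50.6% of the reads of the gene and its copies were counted on the copies. The share was 47.7% for BNIP3, 40.7% for TPI1, 19.0% for LDHB, 15.4% for ALDOA, 12.5% for PGK1, 11.8% for LDHA, 11.4% for PKM and 11.1% for HK2. The levels of GAPDH, TPI1 and BNIP3 are therefore uncertain. Adding the copies back to each gene left PGK1, PKM, LDHA, LDHB, HK2 and BNIP3 lower in starved ISRIB than in starved vehicle cells at 24 h, with adjusted p of 0.016, 0.036, 0.024, 0.02, 0.00019 and 0.026 by the same test.

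The largest changes of these genes appeared when asparagine was missing and ISRIB was present for 24 h. In the heat map of log2 changes, 15 of the 34 genes fell in starved against fed ISRIB cells and none rose, where 22.1% of all genes tested changed, 9.97% higher and 12.2% lower. Against starved vehicle cells, 14 of the 34 fell in starved ISRIB cells and none rose, where 21.7% of all genes changed, 10.1% higher and 11.6% lower. The median log2 change of the 34 genes was -0.32 in the first and -0.21 in the second comparison, against a median of all genes of 0.01 and 0.00. These comparisons share the starved ISRIB libraries, so they are not independent of each other.

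**Figure D1:**
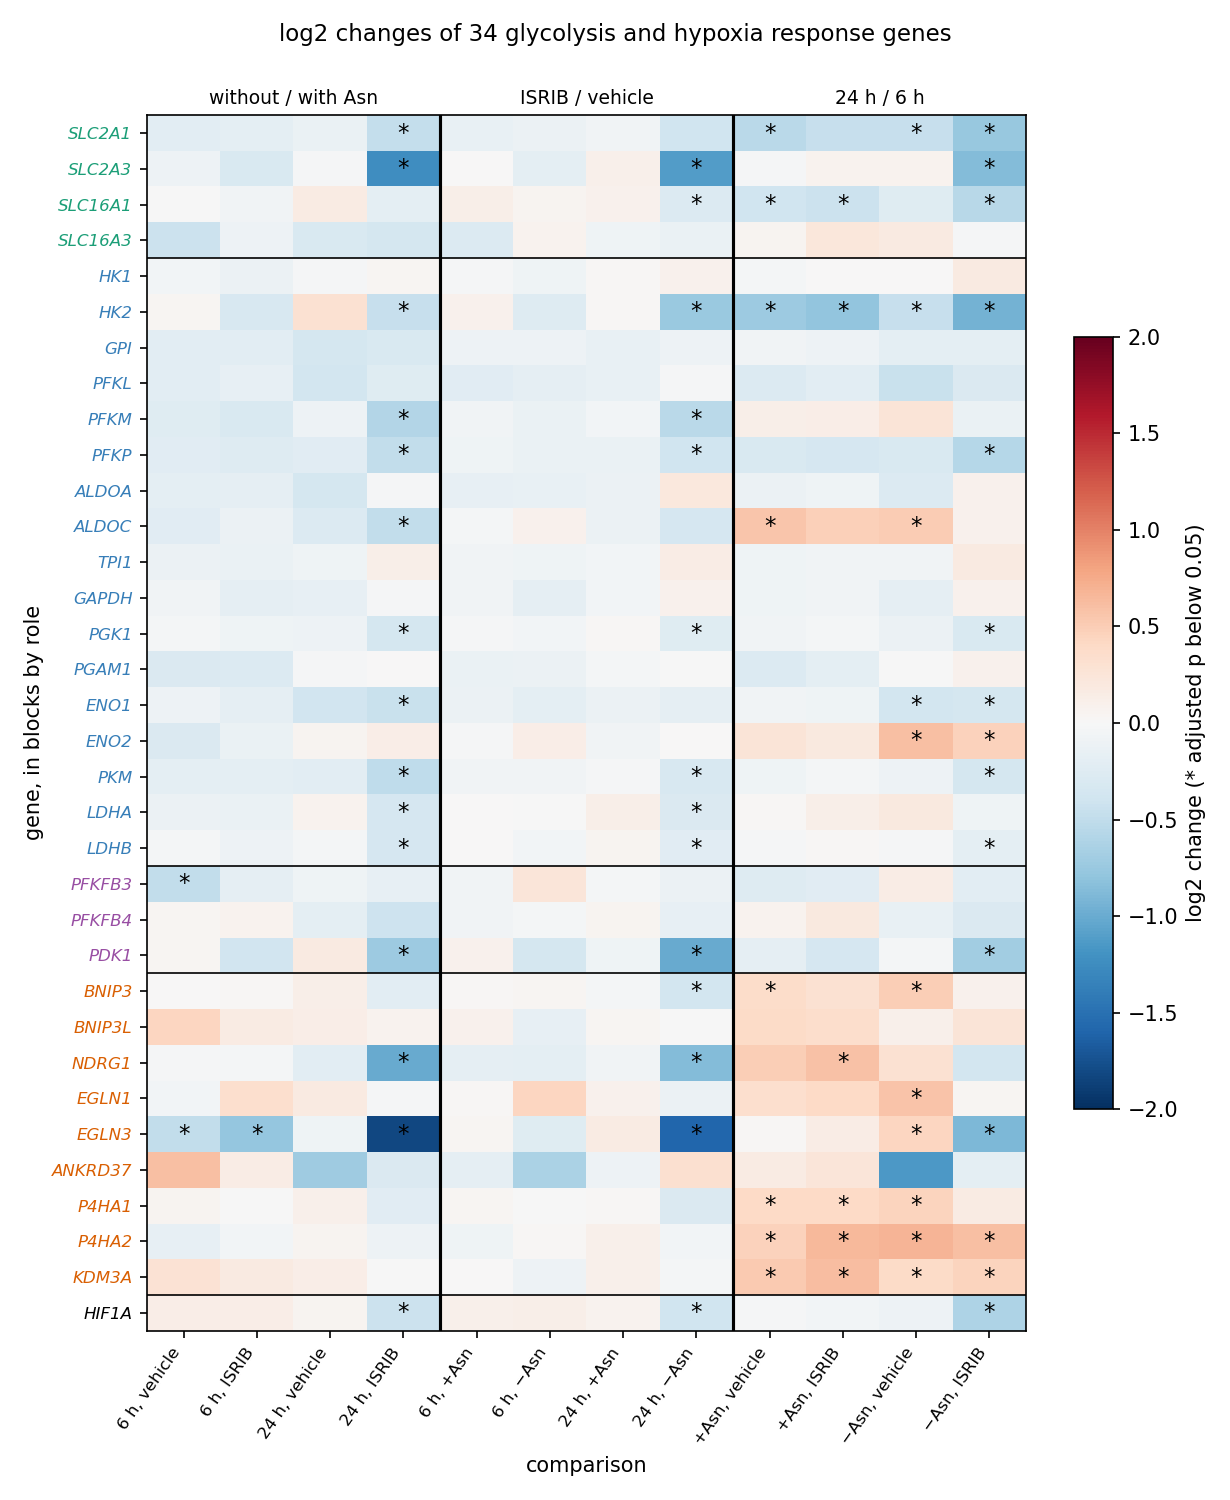
Each cell is the log2 change of 1 of the 34 tested genes (vertical axis, in blocks: transporters, enzymes, regulators, HIF targets outside glycolysis, HIF1A) in 1 of 12 comparisons (horizontal axis), red for higher and blue for lower; a star marks an adjusted p below 0.05. The 2 columns that hold starved ISRIB cells at 24 h against another medium or drug carry 15 and 14 stars, all on lower values, and the 2 columns of ISRIB against vehicle in fed cells carry none.

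Oxygen sensors and their neighbours among HIF targets showed the widest range. EGLN3, the HIF prolyl hydroxylase PHD3 (14:33924231-34462774, minus strand), measured 4.95, 3.5 and 5.30 CPM in starved ISRIB cells, 16.3, 16.2 and 16.2 in fed ISRIB cells, 14.03, 13.0 and 14.1 in starved vehicle cells and 12.9, 14.2 and 16.5 in fed vehicle cells at 24 h. All 3 starved ISRIB values lay far under the other 9. The change was -1.82 ± 0.14 against fed ISRIB cells (adjusted p = 2.6e-08) and -1.58 ± 0.14 against starved vehicle cells (adjusted p = 2.4e-07). NDRG1, a stress-induced gene linked to differentiation, stood at 12.2, 10.7 and 15.1 CPM in starved ISRIB cells, 27.3, 24.8 and 23.9 in fed ISRIB cells, 19.8, 24.9 and 24.1 in starved vehicle cells and 21.1, 24.9 and 34.01 in fed vehicle cells, and again the starved ISRIB libraries were below every other. Its log2 change was -1.002 ± 0.19 against fed ISRIB cells (adjusted p = 0.00055) and -0.86 ± 0.19 against starved vehicle cells (adjusted p = 0.0025). The mitophagy receptor BNIP3 gave 16.5, 17.0 and 16.2 CPM in starved ISRIB cells, 18.0, 18.1 and 21.3 in fed ISRIB cells, 20.4, 20.4 and 23.4 in starved vehicle cells and 20.2, 19.8 and 19.1 in fed vehicle cells and fell against starved vehicle cells only (-0.37 ± 0.12, adjusted p = 0.03). The starved ISRIB values lay under the other 9, and the call was lost without replicate 1 or 3 of either group. The remaining tested targets, BNIP3L, EGLN1, ANKRD37, P4HA1, P4HA2 and KDM3A, did not pass in either comparison, with log2 changes from -0.29 for P4HA1 to 0.33 for ANKRD37 against starved vehicle cells. EGLN1, the main HIF hydroxylase PHD2, changed by -0.11 ± 0.15 there while its relative EGLN3 fell, and the share of EGLN3 in the summed CPM per kb of both was 5.64 ± 1.33% (SD, n = 3) in starved ISRIB cells and 14.2 ± 0.987% in starved vehicle cells.

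Both glucose transporters fell in starved against fed ISRIB cells. SLC2A3 measured 21.0, 22.9 and 17.5 CPM in starved ISRIB cells, 47.5, 51.2 and 46.1 in fed ISRIB cells, 47.0, 46.5 and 39.8 in starved vehicle cells and 45.0, 50.3 and 40.2 in fed vehicle cells. The starved ISRIB values were less than any other library in the study, with a log2 change of -1.24 ± 0.15 against fed ISRIB cells (adjusted p = 5e-06) and -1.12 ± 0.15 against starved vehicle cells (adjusted p = 2.5e-05). SLC2A1 measured 116, 112 and 114 CPM in starved ISRIB cells, 177, 178 and 121 in fed ISRIB cells, 132, 176 and 145 in starved vehicle cells and 143, 192 and 163 in fed vehicle cells; the starved ISRIB libraries were lowest, but fed ISRIB replicate 3 came close. Its change of -0.48 ± 0.16 against fed ISRIB cells passed (adjusted p = 0.039) and lost the call when any of 5 of the 6 libraries was left out, all but fed ISRIB replicate 3, and the difference of -0.40 ± 0.16 from starved vehicle cells did not pass (adjusted p = 0.081). SLC16A1 measured 159, 170.4 and 155 CPM in starved ISRIB cells, 176, 177 and 198 in fed ISRIB cells, 197, 182 and 203 in starved vehicle cells and 184, 171 and 164 in fed vehicle cells, a small gap that passed against starved vehicle cells only (-0.27 ± 0.09, adjusted p = 0.046) and was lost without replicate 1 or 3 of either group, with no filter on low counts and with the GC correction (-0.15, adjusted p = 0.051). The lactate exporter SLC16A3 (MCT4) did not pass against fed ISRIB or starved vehicle cells, at -0.35 ± 0.23 and -0.14 ± 0.23, but with the GC correction it was lower in both (-0.57 and -0.46, adjusted p = 1.1e-05 and 0.00014).

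The entry and commitment steps of glycolysis are each shared between isozymes. HK2, the hexokinase that is induced in many tumours (2:74833981-74893359, plus strand), measured 36.2, 44.2 and 35.5 CPM in starved ISRIB cells, 52.2, 57.6 and 50.1 in fed ISRIB cells, 68.6, 66.4 and 59.6 in starved vehicle cells and 57.0, 55.9 and 45.0 in fed vehicle cells. Starved vehicle cells were the highest group and starved ISRIB cells the lowest, with no overlap. The change was -0.47 ± 0.12 against fed ISRIB cells (adjusted p = 0.0072) and -0.75 ± 0.12 against starved vehicle cells (adjusted p = 0.00015). HK1, the widely expressed hexokinase, changed by 0.04 ± 0.07 and 0.08 ± 0.07 and passed in neither. As a share of both hexokinases per kb, HK2 was 14.7 ± 1.68% in starved ISRIB cells, 23.4 ± 0.635% in starved vehicle cells, and 19.6% as the mean of each fed group at 24 h (SD, n = 3).

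Among phosphofructokinases, the muscle type PFKM measured 45.6, 44.1 and 49.0 CPM in starved ISRIB cells, 70.6, 69.6 and 67.7 in fed ISRIB cells, 63.2, 69.3 and 68.0 in starved vehicle cells and 67.1, 70.0 and 78.2 in fed vehicle cells, so that 3 libraries stood apart below the rest. It changed by -0.58 ± 0.10 against fed ISRIB cells (adjusted p = 0.00026) and by -0.53 ± 0.10 against starved vehicle cells (adjusted p = 0.00077). PFKP, the platelet type and the most abundant of the 3 here, measured 165, 146 and 180.3 CPM in starved ISRIB cells, 238, 258 and 193 in fed ISRIB cells, 205, 236 and 203 in starved vehicle cells and 218, 271 and 265 in fed vehicle cells, with a change of -0.49 ± 0.13 (adjusted p = 0.0097) and -0.39 ± 0.13 (adjusted p = 0.035) in the same order. The liver type PFKL did not pass, at -0.24 ± 0.21 and -0.02 ± 0.21, but with the GC correction it was lower in both (-0.48 and -0.39, adjusted p = 3e-06 and 5.2e-05). The share of PFKP among the 3 genes per kb stayed between 74.5% and 79.0% as group means over all 8 groups. Without fed ISRIB replicate 2 the first PFKP call was lost, and the second was lost without any 1 of 5 of its 6 libraries, all but starved ISRIB replicate 3.

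In the later steps of the pathway the falls were smaller and the reads many. PKM, the pyruvate kinase gene, measured 1002, 826 and 921 CPM in starved ISRIB cells, 1401, 1362 and 1144 in fed ISRIB cells, 1113, 1175 and 1159 in starved vehicle cells and 1215, 1344 and 1424 in fed vehicle cells, and PGK1, phosphoglycerate kinase, 358, 351 and 342 CPM in starved ISRIB cells, 440.3, 439 and 463 in fed ISRIB cells, 376, 408 and 459 in starved vehicle cells and 426, 441 and 459 in fed vehicle cells. ENO1, the main enolase, stood at 854, 837 and 904 CPM in starved ISRIB cells, 1287, 1218 and 1032 in fed ISRIB cells, 893, 1046 and 1008 in starved vehicle cells and 1142, 1370 and 1336 in fed vehicle cells. In each of these genes the starved ISRIB libraries did not overlap with the fed ISRIB libraries, and the change against them was -0.51 ± 0.10 for PKM, -0.35 ± 0.07 for PGK1 and -0.45 ± 0.10 for ENO1 (adjusted p = 0.00076, 0.0014 and 0.0031). Against starved vehicle cells PKM and PGK1 changed by -0.33 and -0.24 (adjusted p = 0.02 and 0.021), while ENO1 did not pass (-0.18 ± 0.10, adjusted p = 0.2). Without replicate 2 or 3 of either group the PKM call against starved vehicle cells was lost, and without replicate 3 of either group, or with the GC correction, that of PGK1. ENO1 was already low in starved vehicle cells, where its 3 values lay under those of fed vehicle cells.

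LDHA, whose product favours lactate formation (11:18394388-18408425, plus strand), measured 1693, 1747 and 1695 CPM in starved ISRIB cells, 1986, 2091 and 2412 in fed ISRIB cells, 2021, 1976 and 2261 in starved vehicle cells and 2038, 1885 and 2062 in fed vehicle cells. LDHB, the other lactate dehydrogenase subunit, measured 663, 736 and 685 CPM in starved ISRIB cells, 865, 872 and 886 in fed ISRIB cells, 785, 815 and 845 in starved vehicle cells and 886, 838 and 792 in fed vehicle cells. Both were lowest in all 3 starved ISRIB libraries of the 24 h groups. LDHA changed by -0.34 ± 0.08 and -0.29 ± 0.08 (adjusted p = 0.0063 and 0.02), and LDHB by -0.33 ± 0.07 and -0.23 ± 0.07 (adjusted p = 0.00097 and 0.016), against fed ISRIB and starved vehicle cells in that order. Against starved vehicle cells LDHA lost its call without starved ISRIB replicate 1 or 3 or starved vehicle replicate 3, and LDHB without starved ISRIB replicate 1 or starved vehicle replicate 3. Corrected for GC, the LDHA change against starved vehicle cells was -0.18 (adjusted p = 0.037). The share of LDHB in both per kb was 45.8 ± 0.902% in starved ISRIB and 44.9 ± 1.23% in starved vehicle cells, a gap within the spread of the libraries. ALDOC, the minor aldolase, measured 4.51, 3.75 and 4.85 CPM in starved ISRIB cells, 5.74, 6.15 and 6.57 in fed ISRIB cells, 5.18, 5.54 and 5.76 in starved vehicle cells and 4.84, 6.77 and 8.35 in fed vehicle cells and passed against fed ISRIB cells only (-0.49 ± 0.17, adjusted p = 0.038), a call lost without starved ISRIB replicate 1 or 2 or fed ISRIB replicate 2 or 3. GPI, ALDOA, TPI1, GAPDH, PGAM1 and ENO2 did not pass in either comparison. Their changes in starved ISRIB against starved vehicle cells ran from -0.11 for GPI to 0.21 for ALDOA.

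PDK1, the kinase that shuts pyruvate out of the mitochondrial pyruvate dehydrogenase (2:172555373-172608669, plus strand), was the regulator that moved. It measured 7.91, 9.32 and 7.75 CPM in starved ISRIB cells, 11.9, 13.9 and 15.8 in fed ISRIB cells, 16.9, 16.8 and 16.4 in starved vehicle cells and 14.1, 14.95 and 15.04 in fed vehicle cells. The 3 starved ISRIB values lay under the other 9. The change was -0.73 ± 0.15 against fed ISRIB cells (adjusted p = 0.0011) and -1.003 ± 0.15 against starved vehicle cells (adjusted p = 6.1e-05). PFKFB3 and PFKFB4, which set the level of the activator of phosphofructokinase, did not pass, at -0.12 ± 0.09 and -0.17 ± 0.19 against starved vehicle cells. Corrected for GC, PFKFB3 was lower there (-0.26, adjusted p = 0.0029).

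HIF1A RNA measured 237, 308 and 276 CPM in starved ISRIB cells, 316, 329 and 463 in fed ISRIB cells, 341, 344 and 403 in starved vehicle cells and 349, 339 and 362 in fed vehicle cells. The starved ISRIB values were the lowest of the 24 h groups, and fed ISRIB replicate 3, a library of strongly negative GC dependence, was the highest. The change of -0.43 ± 0.14 against fed ISRIB cells (adjusted p = 0.037) was lost without that library and without starved ISRIB replicate 1 or 3. The change of -0.41 ± 0.14 against starved vehicle cells (adjusted p = 0.049) was lost without any 1 of 5 of the 6 libraries, all but starved ISRIB replicate 2. Corrected for GC, these changes were -0.25 and -0.18 (adjusted p = 0.0074 and 0.047).

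Leaving out libraries bore on the count more than on the leading genes. The 14 genes lower in starved ISRIB than in starved vehicle cells became 6 without starved vehicle replicate 3, and 8 without starved ISRIB replicate 1 or replicate 3. EGLN3, SLC2A3, PDK1, HK2, PFKM and NDRG1 passed in that comparison under every alternative and without each library. Across genes, the log2 change in that comparison correlated with GC content (Pearson's r = 0.402 over 17326 genes, which are not independent replicates), and the tested members are richer in GC (median 51.8%) than all tested genes (47.7%). Fitted on the 2 groups alone, 9 genes passed against fed ISRIB cells, and without the 3 libraries of most negative GC dependence 17 did. With counts corrected for GC content, 18 of the 34 genes fell there and 21 fell and 1 rose against fed ISRIB cells. The calls gained there were SLC2A1, SLC16A3, PFKL, ALDOC, ENO1 and PFKFB3 against starved vehicle cells, where PGK1 and SLC16A1 were lost, and SLC16A3, GPI, PFKL, GAPDH, PFKFB3 and PFKFB4, with BNIP3L as higher, against fed ISRIB cells.

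**Figure D2:**
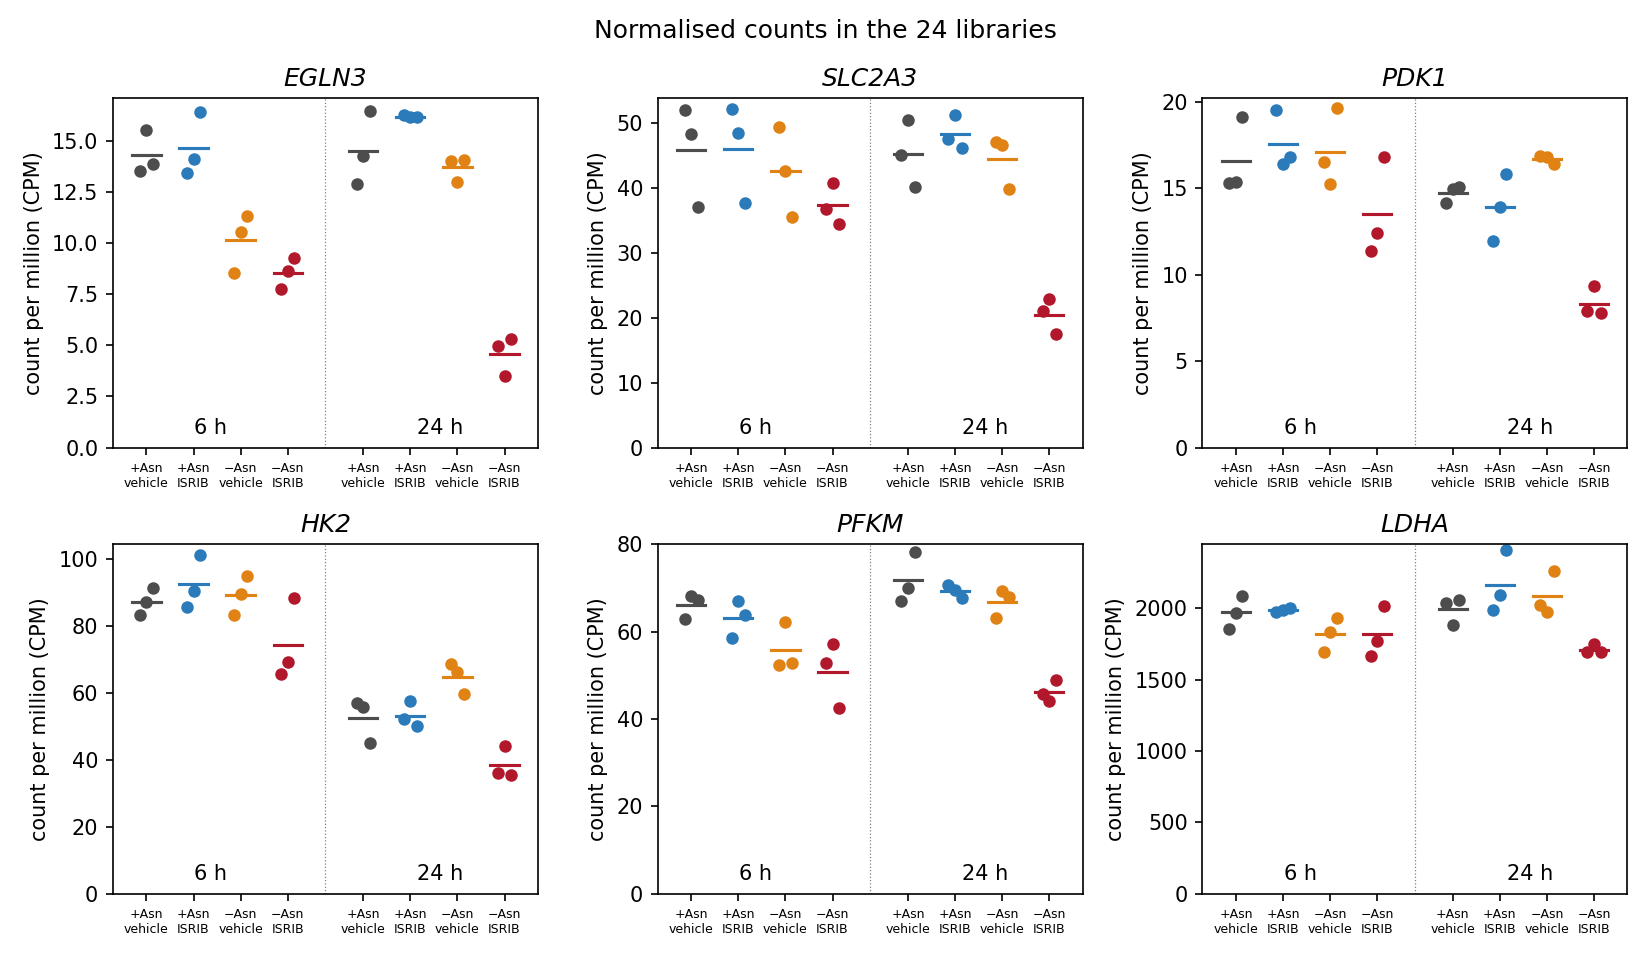
Points are the CPM of single libraries and lines are group means of 3 libraries, for 6 genes in fed (+Asn) and starved (−Asn) cells with vehicle or ISRIB at 6 h (left) and 24 h (right); each vertical axis starts at 0. In all 6 panels the starved ISRIB libraries at 24 h, such as 4.95, 3.5 and 5.30 CPM for EGLN3, sit below the other 9 libraries of 24 h.

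Whether the response to withdrawal differed between ISRIB and vehicle at 24 h was tested as the interaction of medium and drug. It passed for 6 of the 34 genes, where 9.06% of all genes passed, 3.47% with a positive and 5.59% with a negative value. All 6 were negative. They were EGLN3 (-1.74 ± 0.20, adjusted p = 1.4e-05), SLC2A3 (-1.21 ± 0.21, adjusted p = 0.001), HK2 (-0.77 ± 0.17, adjusted p = 0.0068), PDK1 (-0.92 ± 0.20, adjusted p = 0.0076), PFKM (-0.48 ± 0.14, adjusted p = 0.036) and LDHA (-0.40 ± 0.12, adjusted p = 0.038). EGLN3, SLC2A3, HK2 and PDK1 passed under every alternative and without each library. PFKM was lost without any 1 of 9 of the 12 libraries (all but fed ISRIB replicate 1, starved vehicle replicate 1 and fed vehicle replicate 3). LDHA was lost without any 1 of 7 (replicates 1 and 3 of the starved groups, replicates 2 and 3 of fed vehicle and replicate 3 of fed ISRIB), and also with the GC correction. LDHB, NDRG1 and HIF1A came to -0.29 ± 0.09, -0.79 ± 0.26 and -0.48 ± 0.20 and did not pass. With the replicate number as a block 8 genes passed, LDHB (adjusted p = 0.042) and NDRG1 (adjusted p = 0.025) among them, and DESeq2 also called 8. With the GC correction the interaction passed for 13 genes, all negative, LDHB (adjusted p = 0.045) and NDRG1 (adjusted p = 0.008) among them, and that of HIF1A was -0.15 (adjusted p = 0.31).

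**Figure D3:**
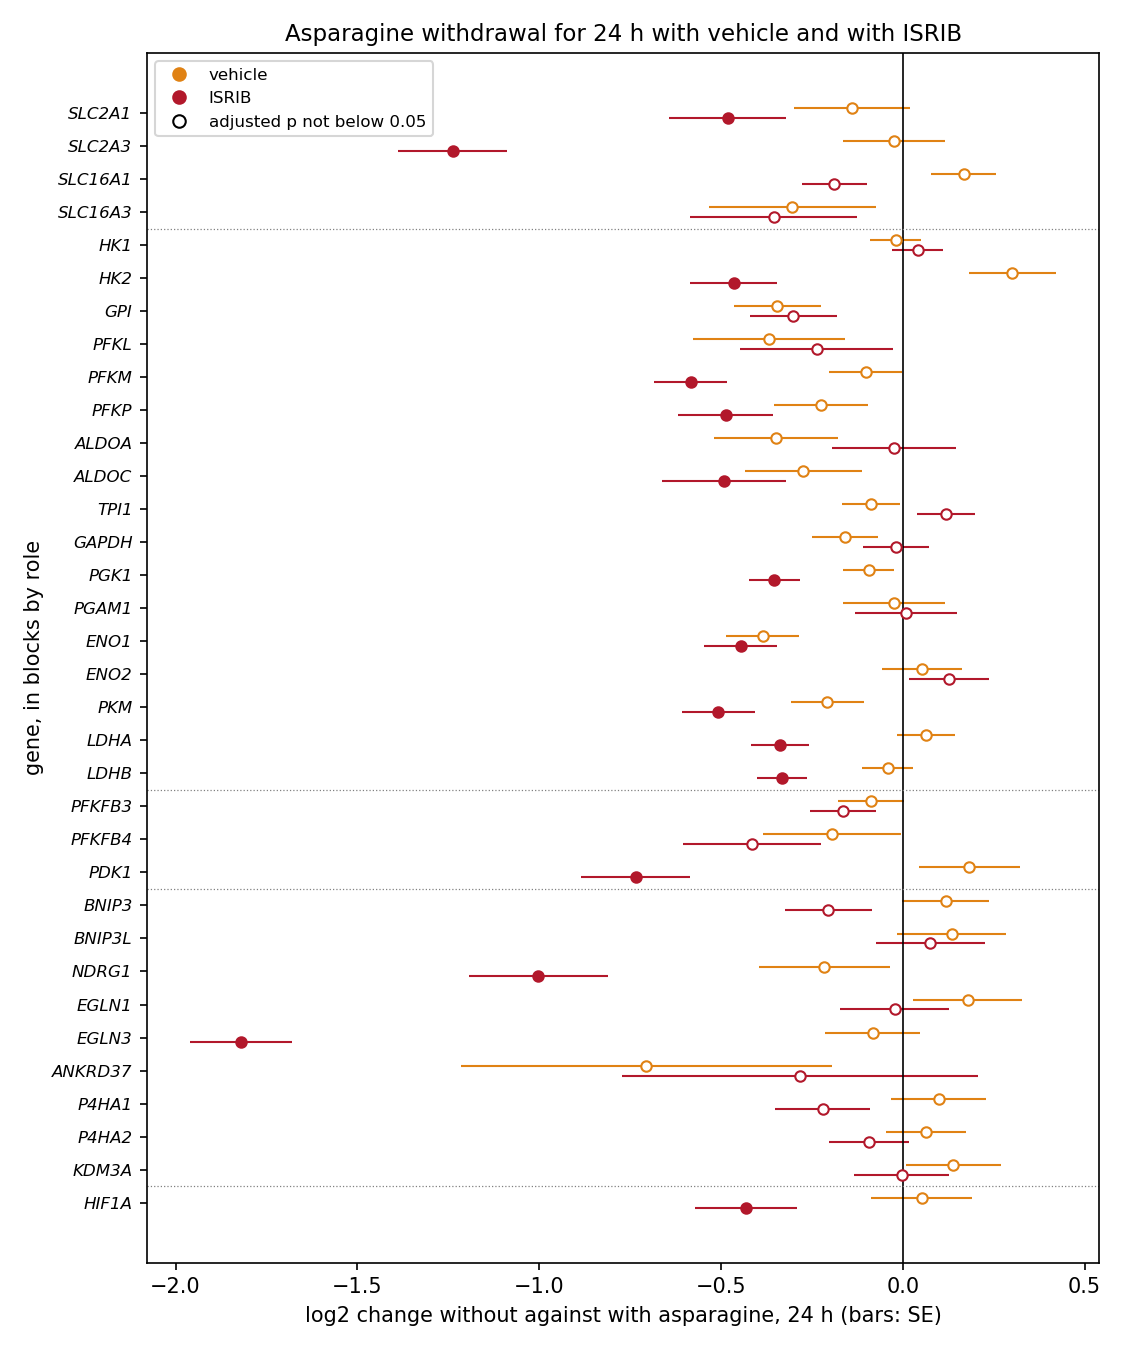
Points are log2 changes (horizontal axis, bars are SE) of starved against fed cells at 24 h with vehicle (orange) and with ISRIB (red) for the 34 tested genes, in blocks by role; filled points have an adjusted p below 0.05. No orange point is filled, and 15 red points are filled, from -0.33 for LDHB to -1.82 for EGLN3.

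Other genes of the same pathways were followed in lists of 30 genes of glycolysis and pyruvate use, of which 23 were tested, and 28 genes of the HIF pathway, of which 26 were tested. In starved ISRIB against starved vehicle cells at 24 h, 5 of the 23 fell and none rose (21.7% of that list and of all genes), and 8 of the 26 fell and 1 rose (34.6%). HKDC1, a further member of the hexokinase family, averaged 43.0 ± 1.42 CPM in starved ISRIB, 92.7 ± 3.93 in starved vehicle and 94.4 ± 7.5 in fed ISRIB cells (SD, n = 3), a change of -1.11 ± 0.08 against starved vehicle cells (adjusted p = 1.3e-08). PGM1, the phosphoglucomutase that links glycogen to glycolysis, changed by -0.73 ± 0.09, PDP2, a phosphatase that reverses PDK1, by -0.57 ± 0.11, and PDHB, a subunit of pyruvate dehydrogenase, by -0.47 ± 0.10. In the HIF list STC1, a secreted glycoprotein, stood at 0.911 ± 0.0649 CPM in starved ISRIB and 4.02 ± 0.803 CPM in starved vehicle cells (-2.13 ± 0.30, adjusted p = 4.8e-05). AK4, a mitochondrial adenylate kinase, changed by -1.01 ± 0.11 and the carbonic anhydrase CA12 by -1.11 ± 0.19. ARNT2, a partner subunit of HIF, changed by -0.82 ± 0.15, and CITED2, a feedback inhibitor of HIF, was the 1 gene that rose (0.82 ± 0.16, adjusted p = 0.0012), named after its value was seen. The median log2 changes of the 23 and the 26 genes were -0.08 and -0.18 there, against 0.00 over all genes. Against fed ISRIB cells 6 of the 23 fell, and 8 of the 26 fell and CITED2 rose. The interaction at 24 h passed for HKDC1 (-1.09), PGM1 (-0.69), PDP2 (-0.58) and PDHB (-0.56) in the first list, and for AK4 (-1.13), STC1 (-2.22), CA12 (-1.40) and MXI1 (-0.67) among 6 in the second.

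Promoters are shown for 4 of the genes that fell, to set 3 that hold many HIF core letters beside EGLN3, which changed most. The sequences are from RefSeq on GRCh38.p14 and were chosen after the values were seen. They run from 250 bases before to 50 bases after 1 RefSeq start per gene. That start can differ from the end of the gene span given above, and for EGLN3 it lies inside the span. Other starts of these genes were not searched. Capitals mark the HIF core motifs ACGTG and GCGTG on either strand, on the other strand written as CACGT and CACGC. The palindrome CACGTG reads as ACGTG on both strands and was counted on each. LDHA (chr11:18394313-18394612, plus strand) held 6 matches, PGK1 (chrX:78103998-78104297, plus strand) 4, HK2 (chr2:74833877-74834176, plus strand) 3 and EGLN3 (chr14:33951025-33951324, minus strand) 0.
LDHA: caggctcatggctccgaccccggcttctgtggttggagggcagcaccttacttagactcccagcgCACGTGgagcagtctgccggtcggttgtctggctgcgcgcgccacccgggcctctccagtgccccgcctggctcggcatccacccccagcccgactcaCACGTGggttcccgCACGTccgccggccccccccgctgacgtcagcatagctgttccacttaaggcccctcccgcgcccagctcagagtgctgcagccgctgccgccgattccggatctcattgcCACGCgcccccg
PGK1: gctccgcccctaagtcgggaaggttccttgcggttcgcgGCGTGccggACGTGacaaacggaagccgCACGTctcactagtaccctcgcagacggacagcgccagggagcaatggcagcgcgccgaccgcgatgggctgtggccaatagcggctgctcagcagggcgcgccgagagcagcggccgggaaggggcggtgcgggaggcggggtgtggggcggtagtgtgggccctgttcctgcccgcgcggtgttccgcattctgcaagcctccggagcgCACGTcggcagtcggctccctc
HK2: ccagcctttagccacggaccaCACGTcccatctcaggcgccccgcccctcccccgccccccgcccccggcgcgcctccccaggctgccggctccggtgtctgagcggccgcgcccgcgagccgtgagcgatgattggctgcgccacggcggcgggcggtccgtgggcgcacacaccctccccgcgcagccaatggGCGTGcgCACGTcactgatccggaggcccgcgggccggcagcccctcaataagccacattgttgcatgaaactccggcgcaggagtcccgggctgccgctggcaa
EGLN3: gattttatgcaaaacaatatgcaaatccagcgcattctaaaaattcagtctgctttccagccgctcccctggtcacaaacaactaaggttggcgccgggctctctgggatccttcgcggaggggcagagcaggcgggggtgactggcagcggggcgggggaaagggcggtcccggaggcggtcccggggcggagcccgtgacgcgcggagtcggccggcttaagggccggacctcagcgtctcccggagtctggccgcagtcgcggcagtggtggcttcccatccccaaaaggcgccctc
Of the 35 genes 31 had an entry in the promoter table. ACGTG stood in 13 of the 31 (41.9%) and in 21.6% of all 27305 promoters, and GCGTG in 14 (45.2%) against 36.3%. Either motif was found in 22 of the 31 (71.0%) and in 48.4% of all promoters. PFKM, PFKP, TPI1, PGAM1, HK1, SLC16A3, PDK1, P4HA2 and EGLN3 had neither in this window, so the genes with and without these letters include both genes that fell and genes that did not pass. TGATGNAAN, the composite element bound by ATF4 and its partners, was found in 1 of the 31, HK1, and in 3.67% of all promoters. A match describes letters and is no evidence of binding, and HIF sites can lie far outside such a window.

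Withdrawal of asparagine with vehicle changed few of these genes. At 6 h, 2 of the 34 fell and none rose, where 4.57% of all genes changed, 3.31% higher and 1.26% lower. PFKFB3, which makes the activator of phosphofructokinase, measured 45.0, 54.6 and 47.5 CPM in starved vehicle cells and 67.3, 74.4 and 65.7 CPM in fed vehicle cells, with 61.6, 60.6 and 51.5 and 61.9, 69.2 and 66.3 in starved and fed ISRIB cells. The 3 starved vehicle values lay under the 3 of fed vehicle cells, and the change of -0.49 ± 0.09 (adjusted p = 0.0022) held under every alternative and without each library. At 24 h the groups overlapped, with 52.2, 58.9 and 52.2 CPM in starved and 56.4, 60.5 and 56.7 CPM in fed vehicle cells, but the change of the response from 6 to 24 h did not pass (0.41 ± 0.13, adjusted p = 0.21). With the GC correction that change did pass (0.42, adjusted p = 0.0056). EGLN3 measured 8.54, 10.6 and 11.3 CPM in starved and 13.5, 15.5 and 13.9 CPM in fed vehicle cells at 6 h, and 7.75, 8.65 and 9.27 and 13.5, 14.1 and 16.4 CPM in starved and fed ISRIB cells. Starved cells were lower with either drug, without overlap. The change was -0.50 ± 0.14 with vehicle (adjusted p = 0.038), a call lost without any 1 of 5 of the 6 libraries, all but starved vehicle replicate 3, and -0.78 ± 0.14 with ISRIB (adjusted p = 0.0029). The difference between those responses did not pass (-0.28 ± 0.19, adjusted p = 1).

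Of the 17 enzymes none passed at 6 h with vehicle, although 16 had negative log2 changes with a median of -0.19, the lowest being PGAM1 at -0.29 ± 0.14 and ENO2 at -0.28 ± 0.11. With the replicate number as a block, BNIP3L also passed at 6 h as higher in starved vehicle cells (0.43, adjusted p = 0.041, against 0.11 without the block). With ISRIB at 6 h EGLN3 was the 1 gene of 34 that passed, where 2.30% of all genes did (1.63% higher and 0.666% lower), and fitted on these 2 groups alone it did not pass. Without the 3 libraries of most negative GC dependence 6 of the 34 genes passed at 6 h with vehicle and 2 with ISRIB. At 24 h with vehicle none of the 34 passed by edgeR, where 0.00574% of all genes passed. DESeq2 called none either, and 4 had an unadjusted p under 0.05. ENO1 came nearest (-0.39 ± 0.10, adjusted p = 0.61). The change of the vehicle response from 6 to 24 h passed for none of the 34 (1.22% of all genes, 0.195% positive and 1.03% negative), with none by DESeq2 and 3 at an unadjusted p under 0.05.

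ISRIB against vehicle in fed cells passed for none of the 34 genes at 6 h or at 24 h, where 0% of all genes tested passed at either time. None had an unadjusted p under 0.05 and DESeq2 called none. Starved cells at 6 h also gave none by edgeR (2.19% of all genes passed, 0.551% higher and 1.64% lower) or DESeq2, with 4 genes at an unadjusted p under 0.05. With the replicate number as a block EGLN1 passed as higher in starved ISRIB cells at 6 h (0.42, adjusted p = 0.047, against 0.19 without it). With the GC correction, as without those 3 libraries, 4 genes passed at 6 h, in the first case PFKFB3 and EGLN1 as higher and PDK1 and BNIP3L as lower in starved ISRIB cells. The interaction at 6 h passed for none (0.718% of all genes, 0.0574% positive and 0.661% negative), with none by DESeq2 and 3 at an unadjusted p under 0.05. The response to ISRIB in starved cells became more negative from 6 to 24 h in 2 of the 34 genes, where 7.59% of all genes passed, 3.35% positive and 4.24% negative. They were EGLN3 (-1.33 ± 0.20, adjusted p = 0.00037) and SLC2A3 (-0.93 ± 0.21, adjusted p = 0.0094). Without starved ISRIB replicate 1 or 2 at 6 h, without replicate 2 at 24 h, or without the 3 libraries of most negative GC dependence, 4 genes passed. With the GC correction 12 genes became more negative and 1 more positive.

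Time in the replaced medium changed between 6 and 15 of the 34 genes. The 4 comparisons of 24 h with 6 h use separate libraries for each combination of medium and drug. In fed vehicle cells 5 of the 34 genes rose and 3 fell (18.8% of all genes changed, 9.34% higher and 9.47% lower), and in fed ISRIB cells 4 rose and 2 fell (17.4%, as 8.75% and 8.62%). In starved vehicle cells 8 rose and 3 fell (25.4%, as 12.2% and 13.2%), and in starved ISRIB cells 3 rose and 12 fell (32.3%, as 14.5% and 17.8%). The members' shares, 23.5%, 17.6%, 32.4% and 44.1%, stand beside 18.8%, 17.4%, 25.4% and 32.3% of all genes, and no test compared them. With the GC correction 9 rose and 7 fell, 9 rose and 7 fell, 11 rose and 7 fell, and 5 rose and 17 fell, in the same order. The count in fed vehicle cells became 5 without 6 h replicate 1 and 4 without 6 h replicate 2 or 24 h replicate 3, and that in starved vehicle cells 7 without 6 h replicate 1 and 6 without 24 h replicate 1 or 3. Without the 3 libraries of most negative GC dependence the 4 counts were 14, 7, 18 and 21. Of the 9 tested HIF targets outside glycolysis 4, 4, 6 and 2 rose in these groups in that order, and the 1 that fell was EGLN3 in starved ISRIB cells. None of the 4 transporters rose, and 2, 1, 1 and 3 fell; with the GC correction SLC16A3 rose in fed ISRIB (0.26, adjusted p = 0.017) and starved vehicle cells (0.32, adjusted p = 0.0031).

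P4HA2, a prolyl hydroxylase that modifies collagen, rose in all 4 combinations. It measured 19.7, 23.6 and 19.0 CPM at 6 h and 28.0, 29.7 and 27.9 CPM at 24 h in fed vehicle cells, 19.5, 20.4 and 18.9 and 29.9, 30.7 and 31.0 in fed ISRIB cells, 17.3, 21.1 and 17.1 and 31.7, 31.3 and 26.4 in starved vehicle cells, and 19.9, 20.4 and 16.3 and 30.4, 27.9 and 27.5 in starved ISRIB cells. Every 24 h library was above every 6 h library. The log2 changes were 0.46 ± 0.11, 0.64 ± 0.11, 0.69 ± 0.11 and 0.60 ± 0.11 in that order. KDM3A, a histone demethylase, also rose in all 4, by 0.53, 0.62, 0.38 and 0.44. P4HA1 rose by 0.40, 0.39 and 0.45 in the first 3 and did not pass in starved ISRIB cells (0.17 ± 0.13). With the GC correction it rose there too (0.30, adjusted p = 0.0011). BNIP3 rose in fed and starved vehicle cells (0.37 and 0.49), NDRG1 in fed ISRIB cells (0.59) and EGLN1 in starved vehicle cells (0.58). With the replicate number as a block NDRG1 rose in fed vehicle cells too (0.48, adjusted p = 0.035). EGLN1 then rose in fed vehicle and fed ISRIB cells as well (0.34 and 0.39, adjusted p = 0.032 and 0.015). These added rises also passed with the GC correction (adjusted p = 0.014, 0.037 and 0.011, in that order). BNIP3L and ANKRD37 passed in none, although BNIP3L passed with the GC correction in both fed groups and in starved ISRIB cells. P4HA2 kept its 4 calls without each library, as did KDM3A in fed cells and EGLN1 and BNIP3 in starved vehicle cells. KDM3A lost its call in starved vehicle cells without any 1 library other than 24 h replicate 2, and in starved ISRIB cells without replicate 2 of either time. P4HA1 lost it in fed vehicle cells without replicate 1 of either time, 6 h replicate 2 or 24 h replicate 3, in fed ISRIB cells without replicate 2 or 3 of either time, and in starved vehicle cells without 6 h replicate 1 or 2 or 24 h replicate 3. BNIP3 lost it in fed vehicle cells without any 1 library other than 6 h replicate 3, and NDRG1 in fed ISRIB cells without replicate 1 or 2 of either time.

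HK2 fell in all 4 combinations. At 6 h it measured 83.4, 87.1 and 91.5 CPM in fed vehicle, 85.9, 90.6 and 101 in fed ISRIB, 83.3, 89.5 and 95.1 in starved vehicle and 65.6, 69.4 and 88.4 in starved ISRIB cells, and in each the 24 h values given above were lower without overlap. The log2 changes were -0.73 ± 0.12, -0.80 ± 0.12, -0.46 ± 0.12 and -0.95 ± 0.12 in that order. SLC2A1 measured 219, 264 and 243, 172, 245 and 239, 196, 227 and 201 and 181, 234 and 159 CPM at 6 h in the same groups. Its change was -0.54 ± 0.16, -0.46 ± 0.16, -0.47 ± 0.16 and -0.75 ± 0.16, and the second, in fed ISRIB cells, did not pass. The first was lost without 24 h replicate 1 or 3 or 6 h replicate 2 or 3, and the third without any 1 library other than 24 h replicate 2. The second passed with the replicate number as a block and with the GC correction (-0.46 and -0.42, adjusted p = 0.018 and 0.0046). SLC16A1 measured 226, 202 and 257, 259, 237 and 244, 226, 213 and 247 and 223, 221 and 265 CPM at 6 h. It changed by -0.40 ± 0.09, -0.43 ± 0.09, -0.23 ± 0.09 and -0.55 ± 0.09, and the third, in starved vehicle cells, did not pass. That change passed with the replicate number as a block and with the GC correction (-0.23 and -0.29, adjusted p = 0.044 and 0.00022). PFKL passed in none of the 4 combinations. With the GC correction it fell in all 4 (-0.19, -0.17, -0.29 and -0.58, adjusted p = 0.018, 0.034, 0.00061 and 1.4e-07).

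ENO2, the minor enolase, went the other way from ENO1 in starved cells. ENO2 measured 34.4, 36.3 and 41.9 CPM at 6 h and 55.6, 57.4 and 56.9 CPM at 24 h in starved vehicle cells, and 43.5, 43.7 and 35.9 and 58.2, 53.8 and 58.2 CPM in starved ISRIB cells. It rose by 0.59 ± 0.11 and 0.47 ± 0.11 while ENO1 changed by -0.36 ± 0.10 and -0.35 ± 0.10. The ENO1 calls were lost without 24 h replicate 1 of starved vehicle and 6 h replicate 2 of starved ISRIB cells. In fed cells ENO2 measured 43.9, 43.4 and 49.9 CPM at 6 h and 52.5, 54.0 and 57.6 CPM at 24 h with vehicle, and 40.4, 46.2 and 49.0 and 56.6, 54.9 and 44.1 CPM with ISRIB, and passed in neither, though in both with the GC correction (0.31 and 0.25, adjusted p = 0.0039 and 0.021). Its share of both enolases per kb was 3.54 ± 0.282% at 6 h and 6.66 ± 0.42% at 24 h in starved vehicle cells (SD, n = 3). In starved ISRIB cells the share was 4.39 ± 0.0181% and 7.48 ± 0.235%. Fed cells had 4.00 ± 0.267% and 5.01 ± 0.366% with vehicle, and 4.28 ± 0.0896% and 5.14 ± 0.126% with ISRIB. ALDOC rose in fed and starved vehicle cells, by 0.55 and 0.50. Both calls were lost without any 1 of 5 of their 6 libraries (all but 24 h replicate 1 and 6 h replicate 1, respectively). With the replicate number as a block and with the GC correction ALDOC also rose in fed ISRIB cells (0.47 and 0.53, adjusted p = 0.046 and 0.013).

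SLC2A3, PDK1 and EGLN3 fell over time in starved ISRIB cells. At 6 h these cells held 36.7, 40.8 and 34.4 CPM of SLC2A3, 11.4, 12.4 and 16.8 CPM of PDK1 and 7.75, 8.65 and 9.27 CPM of EGLN3. All 9 values lay above those at 24 h, with changes of -0.86 ± 0.15, -0.69 ± 0.15 and -0.90 ± 0.15. In the other 3 combinations SLC2A3 and PDK1 did not pass, and EGLN3 rose in starved vehicle cells (0.43 ± 0.14, adjusted p = 0.023), a call lost without replicate 1 of either time or 24 h replicate 3. With the GC correction PDK1 also fell over time in fed vehicle and fed ISRIB cells (-0.27 and -0.41, adjusted p = 0.033 and 0.0016). At 6 h SLC2A3 stood at 52.0, 48.2 and 37.1 CPM in fed vehicle, 52.0, 48.3 and 37.6 in fed ISRIB and 49.4, 42.6 and 35.5 in starved vehicle cells, and PDK1 at 15.3, 15.3 and 19.1, 19.5, 16.4 and 16.8 and 16.5, 15.2 and 19.6 CPM. The difference of the time course between starved ISRIB and starved vehicle cells is the change of the ISRIB response given above, which passed for EGLN3 and SLC2A3 and not for PDK1 (-0.66 ± 0.20, adjusted p = 0.051). With the GC correction it passed for PDK1 too (-0.41, adjusted p = 0.043). HIF1A, PFKP, PGK1, PKM and LDHB also fell over time in starved ISRIB cells, with log2 changes of -0.62, -0.56, -0.30, -0.36 and -0.20. These 5 did not pass over time in starved vehicle cells. With the GC correction HIF1A and PFKP did fall there (-0.23 and -0.21, adjusted p = 0.011 and 0.023). So corrected, PFKP also fell in fed vehicle and fed ISRIB cells (-0.23 and -0.27, adjusted p = 0.016 and 0.0053). In starved ISRIB cells PKM was lost without 24 h replicate 2, and LDHB without 24 h replicate 1 or 3 or 6 h replicate 2 or 3.

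**Figure D4:**
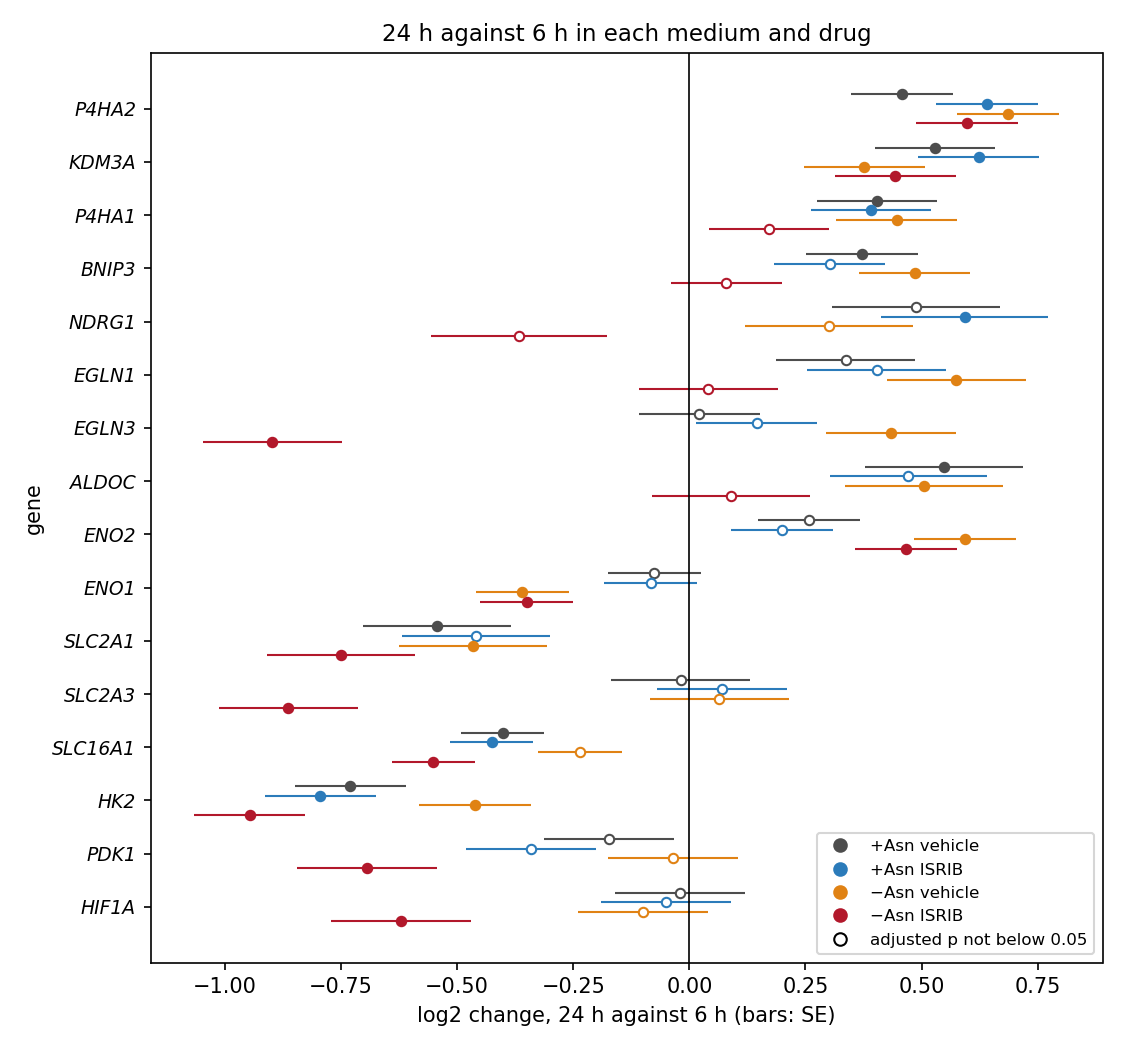
Points are log2 changes of 24 h against 6 h (horizontal axis, bars are SE) in the 4 combinations of medium and drug. The 16 genes were picked from those that passed in at least 1 of them. PFKP, PGK1, PKM and LDHB, which passed in starved ISRIB cells, are not shown. Filled points have an adjusted p below 0.05. P4HA2 and KDM3A are filled and positive in all 4, HK2 is filled and negative in all 4, and EGLN3 is positive in starved vehicle cells and negative in starved ISRIB cells.

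**Figure D5:**
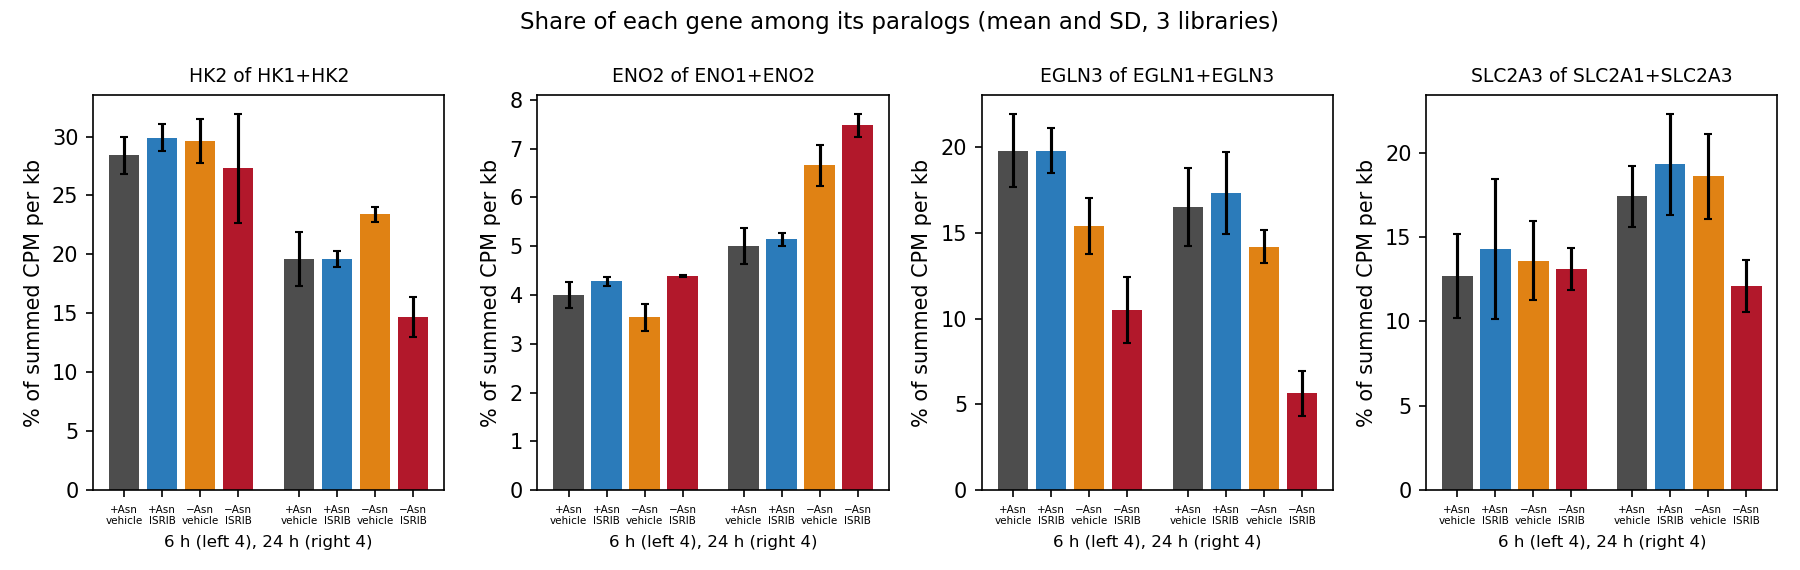
Bars are the mean share (with SD, 3 libraries a group) of 1 gene in the summed CPM per kb of itself and its paralog, in the 4 groups at 6 h (left) and at 24 h (right). HK2 and EGLN3 take their smallest share in starved ISRIB cells at 24 h, 14.7% and 5.64%, where ENO2 takes its largest, 7.48%.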

How the data were processed

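RNA sequencing counts of 24 PC9 libraries in 8 groups of 3 were used. The authors aligned and counted reads with Bowtie2 and featureCounts against hg38, per the submitters' processing notes; versions, annotation and strand setting are not given in the sources used here. Whole reads per gene, the deposited counts, were the main input. A second deposited table of the authors held variance-stabilized log2 values, made with DESeq2 per the submitters' processing notes, and served as an alternative input. All 35 members and the related lists were chosen with earlier results of these data known.

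Counts were scaled by TMM (factors 0.902 to 1.08), filtered with filterByExpr and fitted with 1 mean per group over 24 libraries in edgeR 4.0.16 (R 4.3.3). Each of 16 comparisons was tested with the quasi-likelihood F test, with Benjamini-Hochberg adjustment over 17409 genes and a threshold of 0.05. The p-values measure the spread between the triplicates, called biological in the series design. CPM used the effective library sizes, and levels per kb the merged exon length of GENCODE release 29. Members called in a comparison of medium or drug, and the 8 with the smallest adjusted p over time, were given per library; others were given by range. At most 4 genes of each related list were named per comparison, except that CITED2 was added for ISRIB without asparagine at 24 h.

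Alternatives were DESeq2 1.42.0, its size factors, no filter, only the compared groups, the replicate number as a block, a GC correction (spline with 5 degrees of freedom) with and without the block, leaving out the 3 libraries of most negative GC dependence, limma 3.58.1 on the deposited log2 values, adding pseudogene copies, and leaving out each library. Scripts were tested on simulated data. Libraries with the same replicate number deviated together, with correlations over 0.1 in every pair, in 3 comparisons: withdrawal under vehicle after 6 h (correlations 0.304 to 0.339) or 24 h (0.187 to 0.350), and ISRIB in starved cells after 6 h (0.327 to 0.470). In the others at least 1 pair was under that.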

Additional observations from a re-analysis of the deposited data

Results flagged for a closer look

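The response to asparagine withdrawal at 24 h differed between ISRIB and vehicle for 6 of the 34 tested genes by a test of the difference itself, the interaction of medium and drug in edgeR. The values on the log2 scale were -1.74 for EGLN3 (adjusted p = 1.4e-05), -1.21 for SLC2A3 (0.001), -0.92 for PDK1 (0.0076), -0.77 for HK2 (0.0068), -0.48 for PFKM (0.036) and -0.40 for LDHA (0.038). When each of the 12 libraries was left out in turn, PFKM kept its call in 3 fits and LDHA in 5. PFKM also lost it with no filter on low counts, and LDHA with the compared groups alone and with the GC correction. The response to ISRIB in cells without asparagine differed between 24 h and 6 h for EGLN3 (-1.33, adjusted p = 0.00037) and SLC2A3 (-0.93, adjusted p = 0.0094), again by a test of the difference.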

How the results depend on the processing

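Counts below are of the 34 genes that passed; comparisons are named by their contrast. Withdrawal with vehicle at 6 h (2 genes) gave 4 with the 2 groups alone or the GC correction and 6 without the 3 libraries of most negative GC dependence; with ISRIB at 6 h (1 gene) it gave 2 by DESeq2, 0 with the groups alone, 3 with the GC correction and 2 without those libraries. Withdrawal at 24 h gave 1 with vehicle and no filter (0 in the fit reported) and 9 with ISRIB and the groups alone (15 in the fit reported, 14 to 22 under the other settings of processing, and 12 to 14 without 1 library). ISRIB without asparagine at 6 h (0) gave 4 with the GC correction and without the 3 libraries. The interaction at 24 h (6) gave 13 with the GC correction. The change from 6 to 24 h of the vehicle response (0) gave 1 with the GC correction and without the 3 libraries, and that of the ISRIB response (2) gave 5 by DESeq2, 4 with no filter, 13 with the GC correction and 4 without the 3 libraries. Time in fed vehicle cells (8) gave 13 with the groups alone, 16 with the GC correction and 14 without the 3 libraries, in fed ISRIB cells (6) 3 with the groups alone and 16 with the GC correction, and in starved vehicle cells (11) 18 both with the GC correction and without the 3 libraries. The causes were not tested.

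With the replicate number as a block, ISRIB without asparagine at 6 h gave 1 (EGLN1), time in fed ISRIB cells 10 and the change of the ISRIB response 5. With the block and the GC correction the counts were 7 and 7 for withdrawal at 6 h with vehicle and ISRIB, 1 for withdrawal with vehicle at 24 h, 4 for ISRIB without asparagine at 6 h, 1 and 15 for the interaction at 6 and 24 h, 3 and 17 for the changes of the vehicle and ISRIB responses, and 17, 18, 21 and 23 for time in fed vehicle, fed ISRIB, starved vehicle and starved ISRIB cells. In the 3 paired comparisons the block alone added BNIP3L and EGLN1 at 6 h.

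Leaving out 1 library gave 1 to 2 genes for withdrawal with vehicle at 6 h, 6 to 12 for ISRIB without asparagine at 24 h (14 with all libraries), 4 to 6 for time in fed vehicle cells, 6 to 10 for time in starved vehicle cells and 2 to 4 for the change of the ISRIB response. For withdrawal with vehicle at 6 h the count was 1 without any 1 library other than replicate 3 without asparagine. Of 80 changes of single genes, 44 kept direction and call under every setting and none reversed. Over 1328 pairs of a change and a setting, 1170 kept the call and 158 lost it. Depth limited ANKRD37 and CA9, and pseudogene copies limited GAPDH, TPI1 and BNIP3.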

Other observations

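Related genes of the HIF pathway were also followed at 6 h of withdrawal. With vehicle, VEGFA, the vascular growth factor that both HIF and ATF4 are known to drive, averaged 190.45 ± 21.1 CPM without and 79.6 ± 8.33 CPM with asparagine (SD, n = 3), a rise of 1.26 ± 0.13 by edgeR (adjusted p = 9.6e-07). The transcription factor BHLHE40 rose by 1.16 ± 0.13 and CITED2 by 1.03 ± 0.16, while the lipid droplet gene HILPDA fell by -0.52 ± 0.15 (adjusted p = 0.046). These were the 4 of 26 tested genes of that list that passed (15.4%), where 4.57% of all genes did, 3.31% higher and 1.26% lower. VEGFA was 99.1 ± 9.33 CPM without asparagine with ISRIB at 6 h, and its interaction of medium and drug passed (-0.86 ± 0.18, adjusted p = 0.016). In the list of glycolysis and pyruvate use, PDP2 fell by -0.64 ± 0.11 and HKDC1 by -0.34 ± 0.08, and PDP1, the other pyruvate dehydrogenase phosphatase, rose by 0.55 ± 0.14, as 3 of 23 (13.0%).

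Between 6 and 24 h with asparagine and vehicle, PDK4, another kinase of pyruvate dehydrogenase, averaged 0.525 ± 0.0722 and then 2.48 ± 0.552 CPM (2.22 ± 0.31, adjusted p = 4.5e-05). The glucose transporter SLC2A12 rose by 1.02 ± 0.20 and PDK3 by 0.39 ± 0.11, and HKDC1 fell by -0.61 ± 0.08, among 5 that rose and 3 that fell of 23 (34.8%). In the HIF list 6 rose and 2 fell of 26 (30.8%), where 18.8% of all genes changed, 9.34% higher and 9.47% lower. ARNT2 rose by 0.97 ± 0.15 and PPFIA4 by 1.76 ± 0.36, while VEGFA fell by -0.62 ± 0.13 and ADM, the adrenomedullin gene, by -0.79 ± 0.18.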
